A study of Rattus norvegicus with 4 samples.

Results

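Expression of 10 genes of 2 enzyme families, the alcohol dehydrogenases and the aldehyde dehydrogenases, was examined in livers of anesthetized rats. The genes were the alcohol dehydrogenases *Adh1*, *Adh4*, *Adh5*, *Adh6*, and *Adh7* and the aldehyde dehydrogenases *Aldh1a1*, *Aldh1a7*, *Aldh1b1*, *Aldh2*, and *Aldh3a2*, taken by symbol from the 16992 annotated genes longer than 200 base pairs. They were chosen with the values of these libraries known, in particular the lower levels of *Adh1*, *Adh4*, and *Adh6* with sevoflurane and of *Aldh1b1* with desflurane, and all ratios given here are therefore descriptions. The 4 libraries came from 4 wild type male Wistar rats, purchased at 6 weeks of age, with 1 rat for each condition. Sevoflurane (4.5%) or desflurane (6%) was inhaled for 6 h, and the control of each agent was a rat that inhaled the same agent only until it lost consciousness. Each control had therefore also been exposed to an anesthetic, and no rat without anesthetic was sequenced. All rats had no food or water for the last 2 h before anesthesia. The 6 h rats were then anesthetized for 6 h, whereas the controls were killed at loss of consciousness. Time since the last food therefore differed between each 6 h rat and its control and cannot be told apart from the anesthetic. Because each condition has 1 library, a difference between conditions cannot be told apart from a difference between 2 rats, and no test was made. For the same reason, whether neighbors in an order of levels differ beyond the spread between rats is unknown.

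Alcohol dehydrogenases are zinc enzymes that oxidize alcohols to aldehydes with NAD+, and aldehyde dehydrogenases oxidize the aldehydes to acids. In the liver, these steps clear ethanol by way of acetaldehyde to acetate, convert retinol by way of retinal to retinoic acid, and remove formaldehyde and the aldehydes of lipid breakdown. The liver is rich in class I alcohol dehydrogenase and in the mitochondrial aldehyde dehydrogenase encoded by *Aldh2*.

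The libraries held between 4.47 and 5.40 Gb of aligned sequence, as derived from the ratio of FPKM to coverage, which all 10 genes shared with at least 96.3% of the annotated rows. All 9 hepatocyte markers were above 2 TPM (a level per transcript, corrected for library size and transcript length) in all 4 libraries. Of 16 pancreatic acinar markers, 11 were above 2 TPM in the sevoflurane control and more than 2-fold lower in each of the other 3 libraries, with the list's summed TPM at 74.9 in that control and between 18.1 and 19.9 in the others. *Prss1*, *Ctrb1*, and *Pnlip* were listed at 0 outside the sevoflurane control. *Cela1*, which passed no limit in any comparison, made up 22.8 TPM of the sum in that control. In the other 3 libraries, *Cela1* made up most of the sum, with TPM values between 15.1 and 18.4. All 10 macrophage markers above 2 TPM were lower after 6 h of sevoflurane than in its control, with summed TPM values of 719 in the control and 452 at 6 h, beside 561 in the other control and 684 after 6 h of desflurane.

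All 5 alcohol dehydrogenases lie in 1 cluster on the plus strand of chromosome 2. In the rn6 coordinates of the files, their order is *Adh7* (chr2:243502073-243516533), *Adh1* (chr2:243550655-243562243), *Adh6* (chr2:243656579-243687857), *Adh4* (chr2:243702035-243720063), and *Adh5* (chr2:243728500-243740907). A sixth annotated gene, *Adh6a*, lies between *Adh1* and *Adh6* and was listed at 0 in 3 libraries and at 0.172 TPM in the desflurane control. The aldehyde dehydrogenases are scattered over *Aldh1a1* (chr1:238222689-238264381, plus strand), *Aldh1a7* (chr1:240561951-240601789, minus strand), *Aldh1b1* (chr5:61382351-61387359, plus strand), *Aldh2* (chr12:40466495-40498757, plus strand), and *Aldh3a2* (chr10:47525493-47546037, minus strand). Each of the 10 genes had 1 annotated row per library, with the same start and end in all 4 libraries.

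The promoters of the 2 genes with the largest differences, *Adh4* and *Adh6*, are shown first because they are nearly the same sequence, and the promoter of *Adh1*, another gene of the cluster, is shown for contrast. The sequences are from RefSeq on the GRCr8 assembly, whose coordinates differ from those of the files, and each line holds the 250 bases before the annotated start, on the plus strand. Capitals mark the bases of *Adh4* and *Adh6* that have no identical counterpart in the aligned window of the other gene. The first 11 capitals of *Adh6* lie before the first base of the *Adh4* window and were not compared with *Adh4*. The *Adh1* promoter has no capitals. The positions are chr2:229621842-229622091 for *Adh4*, chr2:229576386-229576635 for *Adh6*, and chr2:229470453-229470702 for *Adh1*, which RefSeq lists as *Adh1c* with *Adh1* as a synonym.
Adh4: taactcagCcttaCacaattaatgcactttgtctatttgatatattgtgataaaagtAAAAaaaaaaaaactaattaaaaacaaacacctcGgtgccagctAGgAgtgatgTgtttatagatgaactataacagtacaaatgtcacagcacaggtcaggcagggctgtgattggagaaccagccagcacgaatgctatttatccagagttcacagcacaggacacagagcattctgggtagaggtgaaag
Adh6: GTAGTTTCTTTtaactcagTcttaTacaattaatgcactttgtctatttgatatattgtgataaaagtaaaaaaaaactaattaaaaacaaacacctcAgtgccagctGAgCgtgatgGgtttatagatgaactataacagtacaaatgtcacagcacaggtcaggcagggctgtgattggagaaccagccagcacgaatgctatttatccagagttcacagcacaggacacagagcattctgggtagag
Adh1: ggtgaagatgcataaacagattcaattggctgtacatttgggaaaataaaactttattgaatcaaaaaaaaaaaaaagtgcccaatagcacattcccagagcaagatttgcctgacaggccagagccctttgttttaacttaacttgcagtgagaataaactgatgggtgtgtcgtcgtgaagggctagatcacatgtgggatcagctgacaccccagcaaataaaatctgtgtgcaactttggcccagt

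When windows of 300 bases were aligned, with the 250 bases shown and the first 50 bases of the transcript, 281 bases were identical between *Adh4* and *Adh6*, with 8 mismatches and 4 gap bases. The longest run without a difference was 166 bases. Within the first 50 bases of the transcript, 49 bases of *Adh6* had an identical counterpart in the *Adh4* window, and 42 bases of *Adh4* had one in the *Adh6* window. Some of the 49 aligned with *Adh4* bases before its annotated start, and the last 7 bases of the *Adh4* window lay beyond the *Adh6* window. The table held a promoter for 8 of the 10 genes, and in the 27 other pairs of these promoters the longest shared run was between 7 and 13 bases. Among all 33469 promoters of the rat table, *Adh4* and *Adh6* were the only 2 that held a 30-base word of the *Adh4* promoter. Reads from a shared 5′ end can be assigned to either gene, and the extent of this was not tested.

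**Figure D1:**
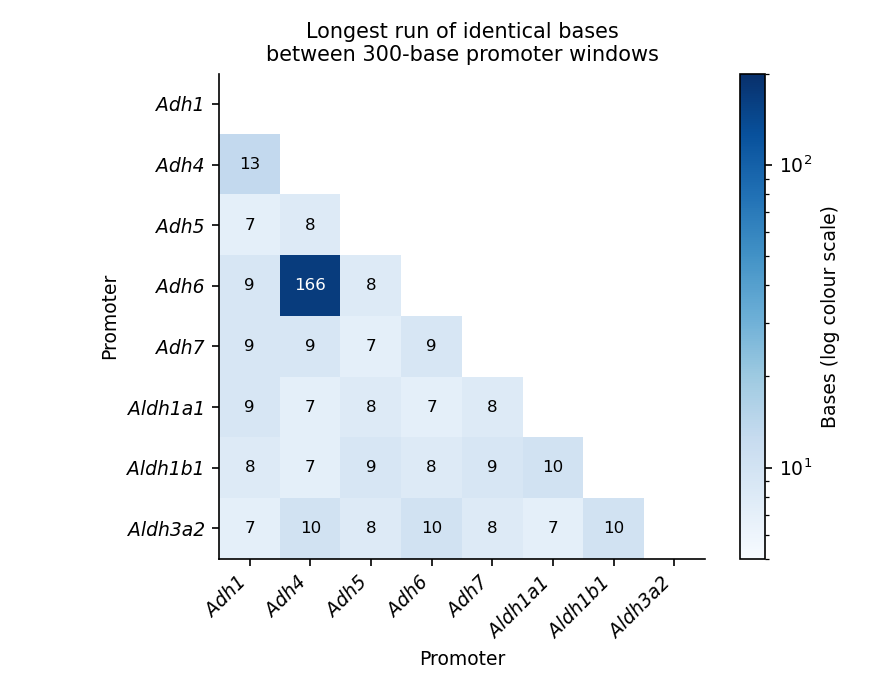
Longest run of identical bases between each pair of 8 promoter windows of 300 bases (RefSeq, GRCr8), with genes on both axes and the run in bases as color on a log scale and as a printed number. The pair of *Adh4* and *Adh6* shared 166 bases, and the other 27 pairs shared between 7 and 13.

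The hexamer TATAAA, searched on both strands, was found in the promoters of *Adh4* and *Adh6* only among the 8 genes, on the minus strand (read as TTTATA above) at 137 and 130 bases before the start. It was present in 14.2% of all promoters. The xenobiotic response element core GCGTG, a motif bound by the aryl hydrocarbon receptor, was found in 4 of the 8 promoters, those of *Adh5*, *Adh6*, *Adh7*, and *Aldh3a2*, and in 29.7% of all promoters. In *Adh6*, it lies 140 bases before the start, does not overlap the TATAAA match, and includes a capital base that *Adh4* lacks. The C/EBP motif TTNNGCAA (10.6% of all promoters), the D-box TTATGTAA (0.893%), and the antioxidant response element TGACNNNGC (12.1%) had no match in the 8 windows.

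*Adh6*, a little-studied member of the family, showed the widest range of the 10 genes. Its TPM value was 162 in the sevoflurane control, 1.17 after 6 h of sevoflurane, 8.36 in the liver of the desflurane control, and 14.3 after 6 h of desflurane. The sevoflurane control thus stood far above the other 3 livers, and the liver after 6 h of sevoflurane was below the 2 TPM limit of the study's calling rule. The ratio to the own control was 138-fold lower with sevoflurane, the 7th lowest of the 9754 genes above 2 TPM in either of the 2 libraries. With the desflurane control in place of the own control, *Adh6* was 7.16-fold lower after 6 h of sevoflurane. The desflurane control was itself 19.4-fold lower than the sevoflurane control. The average coverage of *Adh6* was 291, 1.98, 15.7, and 24.1 in the order given above, so that fewer than 2 reads on average overlapped an exon base after 6 h of sevoflurane.

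*Adh4*, which encodes the class II enzyme that oxidizes ethanol and retinol, followed the same order between the controls. Its TPM value was 191 in the sevoflurane control, 30.1 after 6 h of sevoflurane, 34.1 in the liver of the desflurane control, and 55.4 after 6 h of desflurane. Again the sevoflurane control was high and the other 3 livers were within 1.84-fold of each other. *Adh4* was 6.35-fold lower with sevoflurane than in the own control, but 1.13-fold lower than in the desflurane control. Between the 2 controls, the difference was 5.60-fold, nearly as large as the difference from the own control.

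Relative to each other, *Adh4* and *Adh6* were at similar levels in the sevoflurane control, where the ratio of their TPM values was 1.18. The ratio was 25.8 after 6 h of sevoflurane, 4.08 in the liver of the desflurane control, and 3.88 after 6 h of desflurane. *Adh6* was therefore lower relative to *Adh4* in all 3 libraries in which both were low. The high values of both genes and the acinar markers occurred in the same library, the sevoflurane control, in which the 16 acinar markers summed to 74.9 TPM and *Adh4* and *Adh6* to 353 TPM. The part of acinar RNA in the levels of *Adh4* and *Adh6* was not tested.

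*Adh1*, the class I enzyme that carries most ethanol oxidation in the liver, was the most abundant of the 10 genes in 3 of the 4 libraries. Its TPM value was 952 in the sevoflurane control, 452 after 6 h of sevoflurane, 810 in the liver of the desflurane control, and 1048 after 6 h of desflurane, at ranks between 99 and 207 of all genes. The liver after 6 h of sevoflurane was the low one, and the other 3 lay close together. *Adh1* was 2.11-fold lower than in the own control and 1.79-fold lower than in the desflurane control, so that the 2-fold limit was passed only with the own control. After 6 h, the desflurane library was 2.32-fold higher than the sevoflurane library. The summed macrophage markers given above were also lowest in the liver after 6 h of sevoflurane, and their part in the *Adh1* values was not tested. In these bulk samples, fewer cells of a type and less RNA per cell cannot be told apart.

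The remaining alcohol dehydrogenases passed no limit with either control. *Adh5*, the class III enzyme that oxidizes the adduct of formaldehyde and glutathione, had TPM values of 72.1, 69.5, 63.1, and 102, in the order of sevoflurane control, 6 h of sevoflurane, desflurane control, and 6 h of desflurane. The last of these livers was the highest, 1.61-fold above the own control and 1.41-fold above the sevoflurane control. *Adh7*, the class IV enzyme known for retinol oxidation in the stomach, had low TPM values of 8.44, 7.99, 11.4, and 14.8 in the same order. Both desflurane livers were above both sevoflurane livers for *Adh7*. The share of all genes with this order was not calculated, and nothing is read from it.

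**Figure D2:**
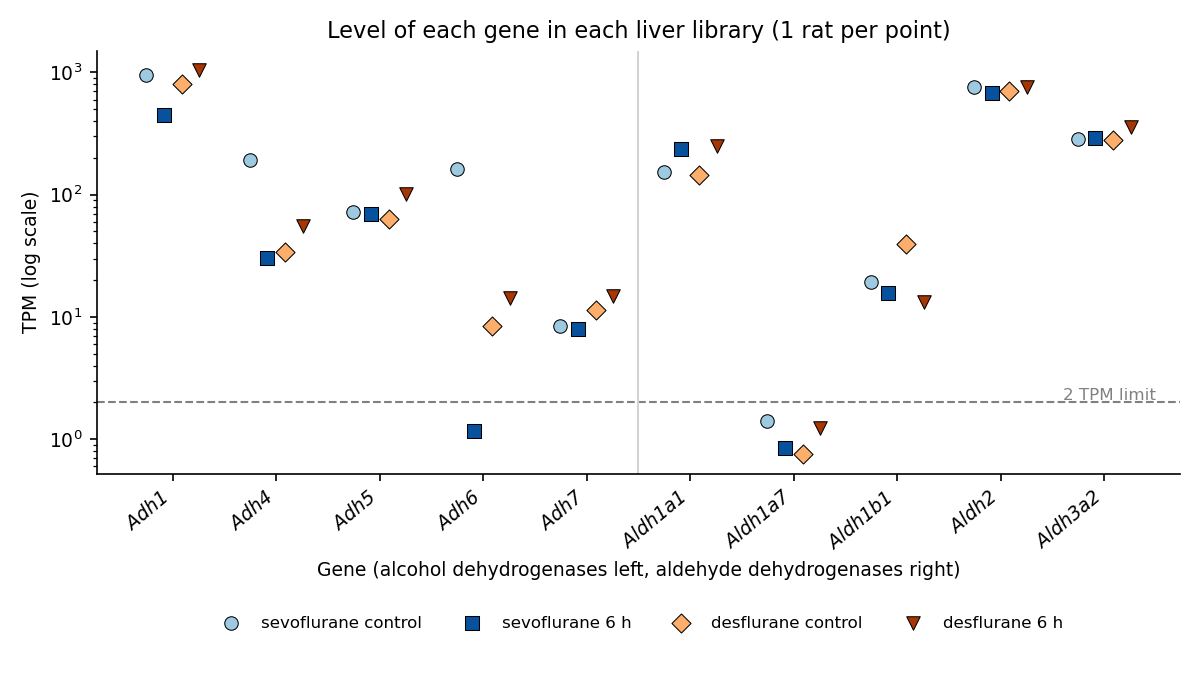
TPM value (log scale) of each of the 10 genes in each of the 4 liver libraries, with 1 point per rat and no error bars because each condition has 1 rat. The sevoflurane control stands apart for *Adh4* (191) and *Adh6* (162), the desflurane control is highest for *Aldh1b1* (39.3), and *Aldh1a7* lies below the dashed 2 TPM limit in all 4 libraries.

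Along the cluster, differences between livers did not follow the order of the genes evenly. *Adh6* and *Adh4*, 14.2 kb apart, had the lowest ratios with sevoflurane, while *Adh5*, 8.44 kb beyond *Adh4*, had a ratio of 0.964. *Adh1* on the other side of *Adh6* had a ratio of 0.474, and *Adh7* one of 0.948. Outside the cluster, *Metap1* and *Eif4e*, the next genes after *Adh5*, had ratios of 0.897 and 1.08. On the other side, beyond *Adh7*, *Trmt10a* and *Mttp* had ratios of 1.22 and 1.25. With desflurane, all 5 alcohol dehydrogenases examined were between 1.29-fold and 1.71-fold higher than in the own control. *Metap1* and *Eif4e* were then 1.09-fold and 1.01-fold higher, and *Trmt10a* and *Mttp* 1.04-fold and 1.22-fold higher. For *Adh4* and *Adh6*, this direction turned with the sevoflurane control.

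**Figure D3:**
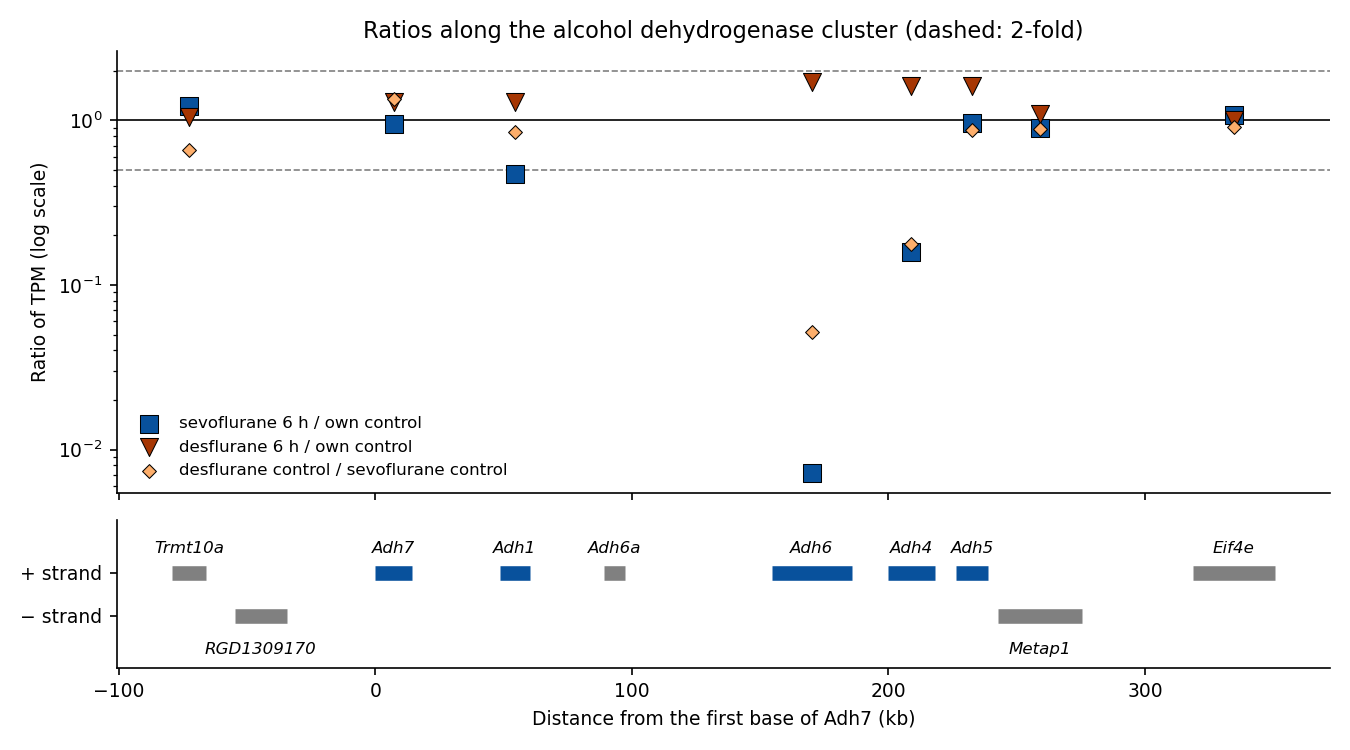
Upper panel, ratio of TPM values (log scale) for genes along the alcohol dehydrogenase cluster, for each 6 h library over its own control and for the desflurane control over the sevoflurane control. Lower panel, gene spans by strand against distance from the first base of *Adh7* in kb, with alcohol dehydrogenases in blue. *Adh6* and *Adh4* are low both after 6 h of sevoflurane (0.00722 and 0.158) and for the comparison of the controls (0.0517 and 0.178), and *Adh6a* and *RGD1309170* have no ratio because they were listed at 0 in at least 3 libraries.

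The summed TPM of the 5 alcohol dehydrogenases was 1386 in the sevoflurane control, 560.5 after 6 h of sevoflurane, 928 in the liver of the desflurane control, and 1234 after 6 h of desflurane. *Adh1* made up 68.7%, 80.6%, 87.4%, and 84.9% of this sum in the same order. *Adh4* and *Adh6* together made up 25.5% in the sevoflurane control and between 4.58% and 5.65% in the other 3 libraries. The 5 aldehyde dehydrogenases summed to 1225, 1215, 1168, and 1382 TPM, a far narrower range.

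*Aldh2*, the mitochondrial enzyme that oxidizes acetaldehyde, varied least of the 10 genes. Its TPM values were 765 in the sevoflurane control, 673 after 6 h of sevoflurane, 702 in the liver of the desflurane control, and 763 after 6 h of desflurane. *Aldh2* made up between 55.2% and 62.4% of the 5 aldehyde dehydrogenases. *Aldh3a2*, the fatty aldehyde dehydrogenase of the endoplasmic reticulum, was at 287, 290, 281, and 357 TPM in the same order, with only the liver after 6 h of desflurane set apart, 1.27-fold above the own control. *Aldh2* and *Aldh3a2* differed from the own control by 1.14-fold or less with sevoflurane.

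*Aldh1a1*, the cytosolic enzyme that oxidizes retinal to retinoic acid, was higher with both agents. Its TPM values were 152 in the sevoflurane control, 236 after 6 h of sevoflurane, 145 in the liver of the desflurane control, and 248 after 6 h of desflurane. The controls were within 1.05-fold of each other, as were the 6 h livers, and the groups of 2 did not overlap. *Aldh1a1* was 1.55-fold above the own control with sevoflurane and 1.71-fold with desflurane, and 1.63-fold above the other control with both, which is under the 2-fold limit in all 4 comparisons. Among the genes above 2 TPM, it was also the one just outside the limit for both agents, whereas *Adh1* (2.11-fold) and *Aldh1b1* (2.97-fold) were the genes just inside. Both 6 h libraries were above both controls for *Aldh1a1* and *Aldh3a2*, which was the case for 34.4% of the 9136 genes above 2 TPM in all libraries.

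*Aldh1b1*, a mitochondrial enzyme related to *Aldh2*, was the gene past the limits with desflurane. Its TPM values were 19.2 in the sevoflurane control, 15.6 after 6 h of sevoflurane, 39.3 in the liver of the desflurane control, and 13.3 after 6 h of desflurane. In this case the desflurane control was the high liver, 2.05-fold above the sevoflurane control. *Aldh1b1* was 2.97-fold lower with desflurane than in the own control and 1.45-fold lower than in the sevoflurane control. After 6 h of sevoflurane, it was 1.23-fold lower than in the own control and 2.53-fold lower than in the desflurane control. Both 6 h libraries were below both controls, as for 13% of all 9136 genes. *Aldh1a7*, a close relative of *Aldh1a1* that can share reads with it, was at 1.41, 0.846, 0.750, and 1.24 TPM and could not pass the limit of 2 TPM.

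By the study's rule, a gene was past the limits when its TPM value was above 2 in the higher library and differed more than 2-fold. Of the 10 genes, 8 were above 2 TPM in all 4 libraries, *Adh6* was so in 3, and *Aldh1a7* in none. With sevoflurane, 3 genes (*Adh1*, *Adh4*, and *Adh6*) were lower than in the own control and 0 were higher, whereas 3.3% of all genes tested were lower and 2.23% were higher. With desflurane, 1 gene (*Aldh1b1*) was lower and 0 were higher, against backgrounds of 1.48% and 2.79%. Nothing is read from these shares, since the genes were chosen from the same ratios. The 10 genes had a median log2 ratio of -0.24 with sevoflurane, and of 0.53 with desflurane, beside 0.05 and 0.12 for the 9136 genes. For the 5 alcohol dehydrogenases, the medians were -1.08 and 0.69, and for the 5 aldehyde dehydrogenases -0.19 and 0.35.

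When each 6 h library was set against the other agent's control, the genes past the limits were in part different. With sevoflurane, *Adh6* and *Aldh1b1* were 7.16-fold and 2.53-fold lower, 2 genes beside a background of 2.59%, and 0 genes were higher beside 2.52%. With desflurane, *Adh4* and *Adh6* were 3.45-fold and 11.3-fold lower, 2 genes beside a background of 1.58% (0 higher, beside 2.84%), although both had been higher against the own control, by 1.62-fold and 1.71-fold. These comparisons share libraries with those above and are not independent of them. The medians of these genes were then at -0.12 with sevoflurane and 0.07 with desflurane, beside 0.07 and 0.10 for the 9136 genes.

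Between the 2 controls, 2 genes (*Adh4* and *Adh6*) were lower in the desflurane control and 1 gene (*Aldh1b1*) was higher, with backgrounds of 1.17% in both directions. Of the 4 genes past the limits against an own control, 3 also differed more than 2-fold between rats that had inhaled either agent only briefly. *Adh1* was the exception, with the controls within 1.18-fold of each other. Each of the 3 genes was highest in the control that both comparisons share, so the 2 calls are not independent. The share of all called genes that also differed between the controls was not calculated. Between the 6 h livers, *Adh1* and *Adh6* were 2.32-fold and 12.2-fold higher with desflurane, 2 genes beside a background of 2.76%, and 0 genes were lower beside 1.17%. The sevoflurane liver was the lower one after 6 h for 9 of the 10 genes, the exception being *Aldh1b1*. It was also the lower one for 5284 of the 9136 genes above 2 TPM in all libraries. By level, the sevoflurane control was the highest liver for 4 genes, the desflurane control for 1, and the liver after 6 h of desflurane for 5. The shares of all genes were not calculated for these counts of the highest liver, and nothing is read from them.

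**Figure D4:**
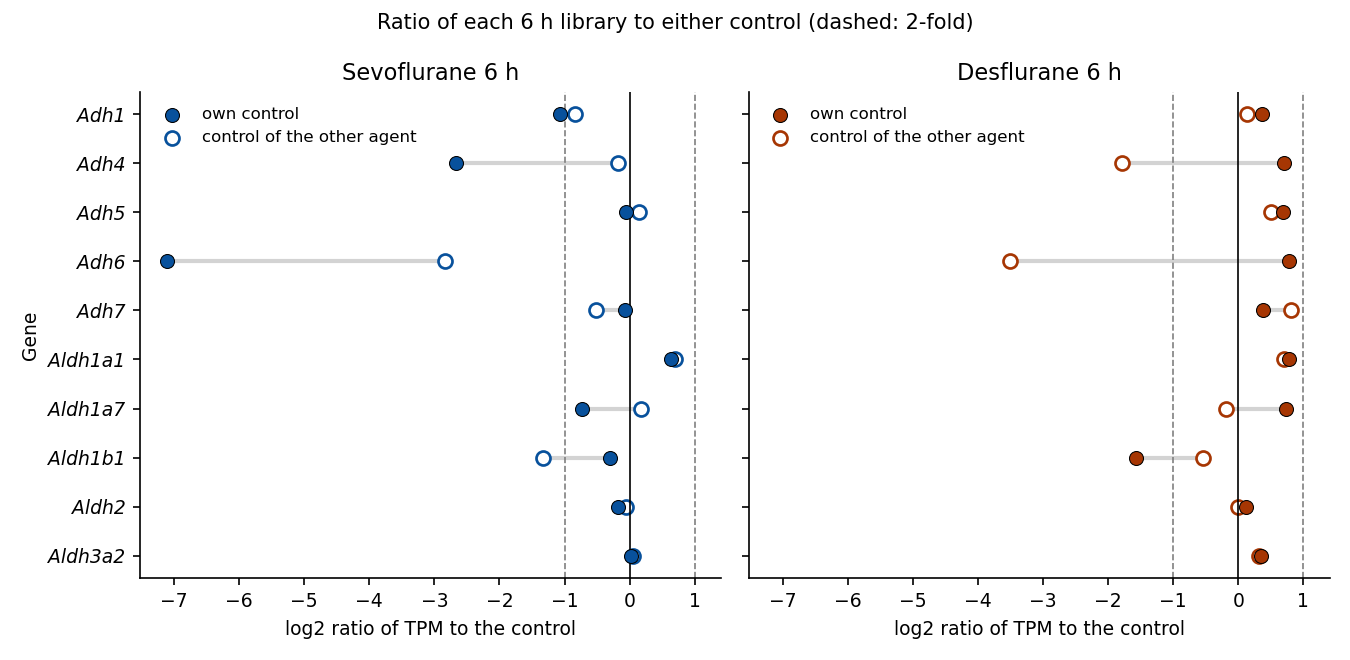
Log2 ratio of TPM values of each gene after 6 h of sevoflurane (left) or desflurane (right) to the own control (filled) and to the control of the other agent (open), with dashed lines at 2-fold. Gray bars join the 2 ratios of a gene and are long for *Adh4* (-2.67 and -0.18 with sevoflurane) and *Adh6* (-7.11 and -2.84), whereas those of *Aldh1a1* (0.63 and 0.70) nearly coincide.

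The files also hold rows that StringTie assembled from the reads without a gene symbol, and these re-list the reads of the annotated rows on the same TPM scale. Of the 40 pairs of a gene and a library, 17 had an assembled row with the same values as the annotated row, among them all 4 libraries for *Adh1*, *Aldh1a1*, and *Aldh1b1*. For *Adh4*, 1 assembled row covered the whole span in each library and reached beyond the annotated end, and its TPM value was 206 in the sevoflurane control, 44.5 after 6 h of sevoflurane, 43.3 in the liver of the desflurane control, and 61.0 after 6 h of desflurane. For *Adh6*, 1 row covered at least 99.9% of the span in 3 libraries, whereas after 6 h of sevoflurane 3 rows covered 94.7% of it. The assembled TPM of *Adh6* was 167, 3.12, 13.5, and 9.10 in the same order. No assembled row ran over both genes.

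The assembled rows gave the same high library for both genes, with other sizes. *Adh4* was 4.63-fold and *Adh6* 53.5-fold lower with sevoflurane than in the own control, instead of 6.35-fold and 138-fold. With desflurane, *Adh6* was 1.48-fold lower in the assembled rows and 1.71-fold higher in the annotated rows, so that its direction with desflurane depends on the row used.

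**Figure D5:**
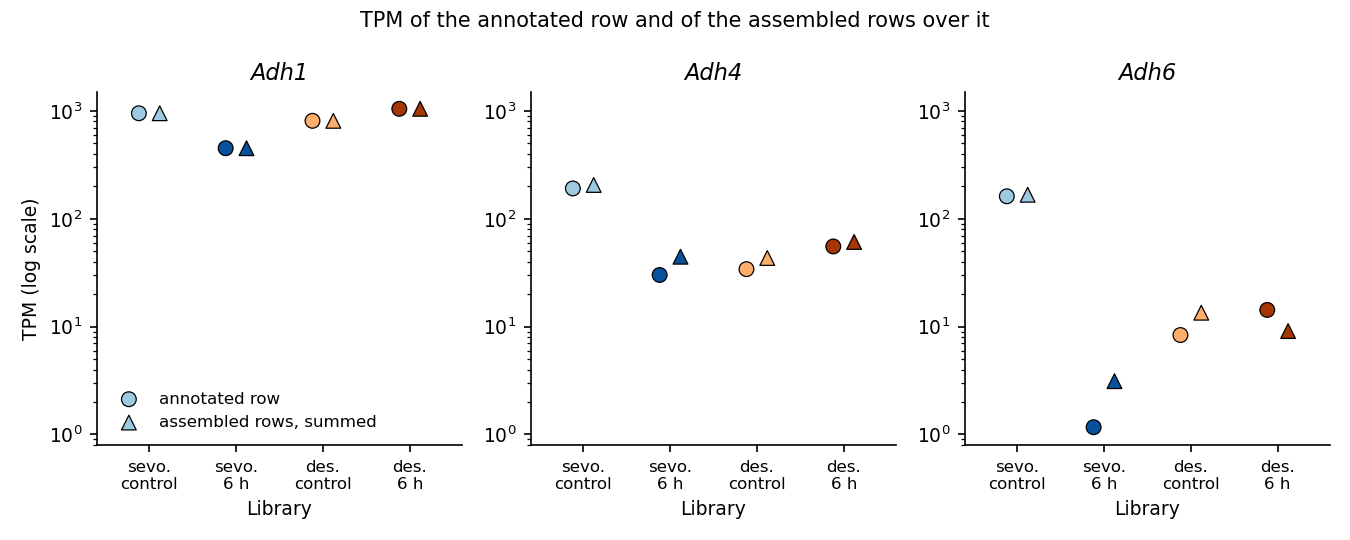
TPM values (log scale) of *Adh1*, *Adh4*, and *Adh6* in each library from the annotated row (circles) and from the assembled rows on the same strand, summed (triangles). The 2 kinds of row are equal for *Adh1*, and for *Adh6* they differ most after 6 h of sevoflurane (1.17 and 3.12) and turn the order of the desflurane libraries (8.36 and 14.3 against 13.5 and 9.10).

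The annotated genes nearest in pattern were identified by the root mean square distance between log2 TPM values centered over the 4 libraries, among genes above 2 TPM in all of them, with the 10 genes themselves left out. The 3 nearest to *Adh1* were *Cd300a*, *Csf1r*, and *Tank*, at distances between 0.0625 and 0.0777. *Csf1r* is also 1 of the macrophage markers, with TPM values of 54.3, 25.6, 42.4, and 53.7. The 3 nearest to *Aldh1b1* were *H2ac1*, *Helz2*, and *Plk2* (0.149 to 0.158), and among those nearest to *Adh4* were *Ly6c* (0.377) and *RGD1307603* (0.510). Distances were larger for *Adh6*, for which *RGD1309362*, *MGC108823*, and *Gbp2* were the nearest at 1.25 to 1.65 log2 units. *Adh6* was itself at 1.17 TPM after 6 h of sevoflurane. Genes as low as that in this library were not among the candidates, so nothing is read from the larger distances.

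Other genes of the same pathways were examined as lists. Of 14 other aldehyde dehydrogenase genes that were detected, *Aldh18a1*, an enzyme of proline synthesis summed over 2 rows, was 2.73-fold higher with sevoflurane and 2.29-fold lower with desflurane, at TPM values of 1.19, 3.24, 2.43, and 1.06, and it passed no limit against the other control. *Aldh3b1*, which acts on lipid aldehydes, was 6.40-fold higher with desflurane (0.454 and 2.90 TPM), and the other 12 passed no limit against the own control. The median log2 ratio of the 10 genes of this list above 2 TPM in all libraries was -0.09 with sevoflurane and -0.01 with desflurane, beside 0.05 and 0.12 for all genes.

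Of 7 genes that act on ethanol or acetate outside the 2 families, 0 passed the limits with either agent. *Cyp2e1*, the cytochrome P450 that also oxidizes ethanol, had TPM values of 3361, 2456, 2034, and 3299, and *Cat*, the peroxisomal catalase, had 1969, 1407, 1773, and 1821. As for *Adh1*, *Cyp2e1* and *Cat* were lower after 6 h of sevoflurane than in the own control, by 1.37-fold and 1.40-fold. Against the desflurane control, *Cyp2e1* was 1.21-fold higher after 6 h of sevoflurane, unlike *Adh1*, and *Cat* was 1.26-fold lower. The list had a median log2 ratio of -0.24 with sevoflurane and 0.33 with desflurane over its 6 genes above 2 TPM in all libraries.

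Of 7 genes for formaldehyde and glutathione steps, 1 was past the limits with sevoflurane and 2 with desflurane, all lower. *Esd*, whose product S-formylglutathione hydrolase acts directly after the *Adh5* enzyme, was at 107, 114, and 94.0 TPM in the first 3 libraries and at 16.4 after 6 h of desflurane, 5.73-fold below the own control. *Adh5* itself was highest in that library. *Gclm*, the modifier subunit of the enzyme that limits glutathione synthesis, had TPM values of 252 and 180 in the 2 controls and was 2.49-fold lower with sevoflurane and 2.44-fold lower with desflurane. Against the other control, *Gclm* was 1.78-fold lower with sevoflurane, under the limit, and 3.42-fold lower with desflurane. The medians were 0.09 and -0.43.

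Of 21 detected genes of retinoid metabolism, 0 passed the limits with sevoflurane and 1 with desflurane. *Rdh16*, a retinol dehydrogenase, was 4.10-fold higher with desflurane, with TPM values of 68.5, 109, 31.6, and 130, and, as for *Aldh1a1*, both 6 h libraries were above both controls. Against the sevoflurane control, *Rdh16* was 1.89-fold higher after 6 h of desflurane, under the limit. The list medians were -0.05 and -0.10 over 15 genes. Of 16 transcription factors and nuclear receptors of the liver, *Nr1i3*, the constitutive androstane receptor, and *Foxa2*, a forkhead factor of hepatocytes, were 2.33-fold and 2.41-fold lower with sevoflurane. The TPM values were 52.9, 22.7, 37.3, and 42.1 for *Nr1i3* and 30.5, 12.7, 44.5, and 22.9 for *Foxa2*. Against the desflurane control, *Nr1i3* was 1.64-fold lower, under the limit, and *Foxa2* was 3.52-fold lower. *Nr1i2*, the pregnane X receptor, and *Ahr*, the aryl hydrocarbon receptor, were 2.82-fold and 2.20-fold higher with desflurane. Against the other control, they were 2.26-fold and 2.23-fold higher. With sevoflurane, *Nr1i2* was 1.79-fold above the own control, under the limit, and 2.24-fold above the desflurane control, past the limit. *Ahr* was 1.11-fold and 1.09-fold higher in the same comparisons. The medians of this list were -0.07 and 0.18.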

How the data were processed

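Liver RNA of 4 rats was sequenced as 1 library per condition, and groups were taken from the labels. The authors trimmed the reads with sickle, mapped them to rn6 with HISAT2, sorted them with SAMtools, and quantified them with StringTie and the refGene annotation of rn6. The deposited tables give average coverage per gene (a signal not normalized for library size), FPKM, and TPM. The authors' TPM is a signal scaled so that the assembled rows sum to 1000000, and annotated rows repeat the same reads on that scale. Read counts were not used here and intervals were not calculated. The strand setting of StringTie is not given in the sources used here.

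Annotated rows longer than 200 base pairs were summed per symbol. Ratios carry no pseudocount, and depth was derived from the FPKM to coverage ratio, within 0.2% in all 10 genes. No test was made. The genes and lists were chosen with earlier results of these data known. *Adh6a*, *RGD1309170*, *Trmt10a*, *Mttp*, *Metap1*, and *Eif4e* were named as neighbors in or beside the cluster. Named genes are otherwise the 10 members and list genes past the limits against an own control (or the 2 most abundant). The 3 nearest genes of each member past the limits are also named. A gene under this rule is not reported here. Acinar markers, *Prss1*, *Ctrb1*, and *Pnlip* among them, were named after their values were seen. Alternatives covered limits, scalings, units, rows, and controls. Promoters were aligned with end gaps free. Python 3.11.15, numpy 2.4.6, and pandas 2.3.3 were used.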

Additional observations from a re-analysis of the deposited data

Results flagged for a closer look

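For 7 genes, the ratio to the own control was below 1 with sevoflurane and above 1 with desflurane. Of the 9136 genes above 2 TPM in all libraries, 3923 were lower with sevoflurane and 6125 were higher with desflurane. The share that was both was not calculated, and nothing is read from the count of 7. The log2 ratio with desflurane minus that with sevoflurane was 7.89 for *Adh6*, 3.37 for *Adh4*, 1.46 for *Aldh1a7*, 1.45 for *Adh1*, 0.74 for *Adh5*, 0.45 for *Adh7*, and 0.30 for *Aldh2*. These differences were not tested, since each agent has 1 library per state, and several rest on the choice of control. When the other control was used, the direction turned for *Adh4*, *Adh6*, *Aldh1a7*, and *Aldh2* with desflurane and for *Adh5* and *Aldh1a7* with sevoflurane.

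Assembled rows on the opposite strand of 2 genes stood out in the library after 6 h of sevoflurane. The row over *Aldh1a1* had a TPM value of 2.29 in that library, and no such row was listed in the other 3. Rows at *Aldh2* had a summed TPM value of 398, compared with 119 in the sevoflurane control, 110 in the desflurane control, and 137 after 6 h of desflurane. Their highest coverage was 179, compared with 214, 204, and 229 in the same order, so that the summed TPM and the coverage of these rows differ in direction. These rows were not used in the comparisons, and their source was not tested.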

How the results depend on the processing

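No paired analysis was possible because each condition has 1 library, and leaving out a library was not possible for the same reason. With the fold limit at 1.5, 1 gene was higher with sevoflurane and 4 with desflurane, and with the limit at 3, 0 were lower with desflurane. With the mean of the 2 controls, 3 genes were lower with desflurane, and with the control of the other agent, 2 were, *Adh4* and *Adh6* in place of *Aldh1b1*. Shares of all genes were calculated only for the main limits, with either control. Counts under the other settings have no such share beside them, and nothing is read from their size. The number lower with sevoflurane was 2 with the fold limit at 3, with the mean of the controls, and with the other control, 4 (with *Aldh1a7*) when assembled rows were added, which counts the same reads again, or used in place of annotated rows, a choice made after seeing the data, and 3 under the other settings. Of 240 ratios over 12 settings, 221 moved by less than 1.5-fold and 19 by more. Each gene had 1 annotated row, so dropping the length filter or keeping only the longest row left every ratio unchanged. FPKM and coverage divided by depth gave nearly the same ratios, and a rescaling shifts all genes of a library alike. The count of 221 was thus in large part fixed in advance, and nothing is read from it. The log2 ratio with sevoflurane ranged from -1.13 to -0.84 for *Adh1*, from -2.72 to -0.18 for *Adh4*, and from -7.16 to -2.84 for *Adh6*, and that with desflurane from -1.70 to -0.54 for *Aldh1b1*. Directions that turned were those of *Adh4*, *Adh6*, *Aldh1a7*, and *Aldh2* with desflurane and of *Adh5*, *Adh7*, *Aldh1a7*, and *Aldh3a2* with sevoflurane. None of these was past the limits against the own control in annotated rows, but *Adh4* and *Adh6* with desflurane were past them, as lower, with the other control and with the mean of the controls. *Aldh3a2* (-0.04) turned with median-of-ratios scaling and with other units or scalings, *Aldh2* (-0.01) with median-of-ratios scaling and with the other control, and the others with the choice of control or row.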
